A study of Mus musculus with 3 samples.

Results

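The 10 genes described here set whether a cell enters the division cycle from G1, and they were taken by name from that pathway. The rule that lists them uses no measured value, but it was set with earlier results of these data known. They are 10 of 21900 protein-coding genes on named chromosomes of the mouse. The activators of cell cycle entry are the D-type cyclin genes Ccnd1, Ccnd2 and Ccnd3 and the kinase genes Cdk4 and Cdk6. The inhibitors are Cdkn1a, Cdkn1b, Cdkn1c, Cdkn2c and Rb1. All 10 were found by symbol. The readout was the position of RXRA on chromatin, mapped by CUT&RUN, in which an antibody brings a nuclease to its target and the freed DNA is sequenced. RXRA belongs to the nuclear receptors and pairs with others of them on DNA. The HSC library was made from 10000 haematopoietic stem cells, gated as Lin-, cKit+, Sca1+, CD48- and CD150+. The 2 MPP libraries were made from 50000 multipotent progenitors each, gated as Lin-, cKit+, Sca1+ and CD150-. The mice were C57BL/6, about 10 months old and pooled in groups of 3 or 4. Their genotype is labelled VavCre+; WT in one field and Rxrabfl/fl (WT) in another, which names a Cre driven by the blood-cell promoter of Vav and floxed alleles; in both fields the animals are called wild type. Every library was exposed to the RXR agonist bexarotene (1 mM, 1 h), so no untreated cells stand beside them, and a library with a control antibody was not analysed here. Peak positions do not measure RNA, so the sorted identity could not be checked. Of 15 marker genes of these and other blood cells, none had a gene-end peak in HSC, and 6 and 3 had one in MPP replicates 1 and 2. Over all protein-coding genes the shares were 8.21%, 41.2% and 36.0% in the same order, so these counts do not mark out the cells.

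D-type cyclins bind Cdk4 and Cdk6, and the active kinase phosphorylates the retinoblastoma protein, the product of Rb1, which then lets go of the E2F factors that drive genes of DNA synthesis. The proteins of Cdkn1a, Cdkn1b and Cdkn1c bind complexes of cyclin and kinase, and that of Cdkn2c binds Cdk4 and Cdk6 directly and keeps D-type cyclins off. In blood stem cells, low Cdk6 and high Cdkn1c are known features of the resting state, and the loss of Cdkn2c is known to raise self-renewal.

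Depth differed between the libraries and bears on every count below. The lists held 4047 peaks for HSC and 29848 and 19570 for MPP replicates 1 and 2. Pileup is the number of fragments stacked at a peak's summit, and the lowest pileup among all called peaks was 5 fragments for HSC and 10 and 6 for MPP replicates 1 and 2. These are 8.28, 3.48 and 5.55 times the genome-wide background of each library, so a site had to stand further above background to be listed in HSC. Fold enrichment is the authors' value per peak and serves only to describe and rank peaks within a list. Intervals on pileups are exact Poisson (95%) and cover counting error only. With 1 HSC library, differences between HSC and MPP have no replicate check and no test.

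RXRA peaks were listed around all 10 genes in both MPP libraries, where 78.8% and 72.7% of all protein-coding genes had one, and around 3 of them in HSC, against 34.0%. Within the genes and 50 kb on either side the lists held 4 HSC peaks, with 59 and 45 peaks of MPP replicates 1 and 2. Chained by overlap, these made up 75 sites, of which 30 were found in both MPP libraries and 2 in all 3 libraries. A peak was placed at a gene end where it overlapped the 1 kb on either side of an end of the gene. It was called internal where it otherwise overlapped the gene, and distal where it lay elsewhere within 50 kb. Peaks at gene ends were listed for 0, 3 and 4 of the 10 genes, taking HSC first and then MPP replicates 1 and 2, where 8.21%, 41.2% and 36.0% of all protein-coding genes had one. In both MPP libraries together 3 of the 10 had one, against 28.9% of all genes. At their ends the G1 genes were thus close to the background of these libraries.

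The numbers of activators and inhibitors with an internal peak were equal in each library, and those with a distal peak in both MPP libraries. A gene-end peak was listed for 1 of 5 activators and 2 of 5 inhibitors in MPP replicate 1, and for 2 of each in MPP replicate 2. An internal peak was listed for 1 of 5 activators and 1 of 5 inhibitors in HSC, and for 3 and then 2 of each list in MPP replicates 1 and 2. All protein-coding genes had an internal peak in 4.89%, 26.4% and 18.6% of cases. Distal peaks were listed for all 5 activators and all 5 inhibitors in both MPP libraries, where 71.1% and 63.1% of all genes had one. In HSC they were listed for 2 activators and no inhibitor, against 25.6% of all genes. With each MPP list held to the HSC list's length, distal peaks were left at 3 activators and 1 inhibitor in MPP replicate 1 and at 3 and 0 in replicate 2. In replicate 1 all those of activators lay at ends of other genes: Eef1akmt3 and Mettl1, Fam133b, and Tigar. In replicate 2 Cdk6 and Ccnd2 also kept a peak away from such ends. With only distal peaks that had no other gene end closer, the counts were 3 activators and 5 inhibitors in replicate 1 and 3 and 2 in replicate 2. Shares of all protein-coding genes were not taken at either of these settings. The activators held more peaks in total, 37 against 22 and 27 against 18 in MPP replicates 1 and 2. They are also longer, with 325 kb of gene against 157 kb. Per 100 kb of gene and flanks the density was 4.48 against 3.35 and 3.27 against 2.74 in the same order, and 2.35 and 1.61 over all protein-coding genes. It was also above that of all genes for the 15 marker genes, at 3.91 and 2.44. For 16 further genes of G1 control, described below, it was 3.54 and 2.49. With 5 genes a list, the counts and densities are descriptions of the 2 lists and not a test.

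**Figure D1:**
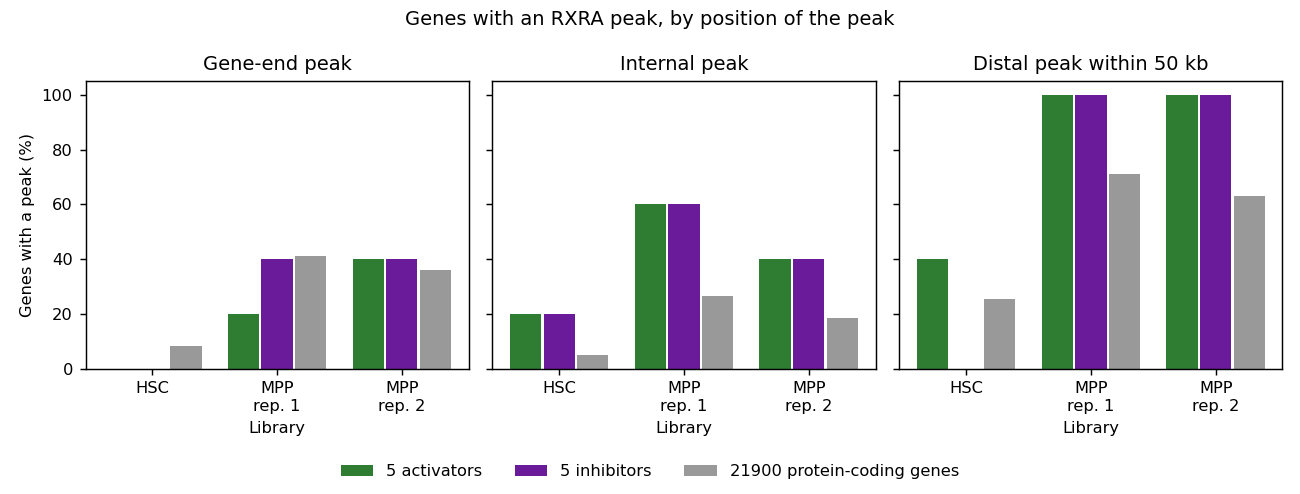
Percent of genes with an RXRA peak at a gene end, inside the gene or within 50 kb, for the 5 activators, the 5 inhibitors and all 21900 protein-coding genes, in each of the 3 libraries (bars start at 0; 1 gene of 5 is 20%). Activators and inhibitors have bars of equal height in both MPP libraries for internal and distal peaks, and no member has a gene-end peak in HSC.

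The gene-end peaks all lay where transcription begins. RefSeq's promoter table (GRCm38.p6, the same assembly as mm10) matched 6 of the 10 genes with 9 starts: Ccnd3, Cdkn1a and Cdkn2c with 2 each, and Cdk4, Cdk6 and Cdkn1b with 1 each. Ccnd1, Ccnd2, Cdkn1c and Rb1 were not matched, and none of these had a gene-end peak in any library. Of these 9 windows, from 250 bases before to 50 after a start, 0 were overlapped by an HSC peak and 6 by peaks of each MPP replicate, against 5.13%, 24.3% and 22.9% of 32851 windows in the table. The share of the 9 is raised by the missing genes, and Ccnd3, Cdkn1a and Cdkn2c enter it with 2 windows each. By gene, gene-end peaks were listed for 3 and 4 of the 10 in MPP replicates 1 and 2, against 41.2% and 36.0% of all genes. Both MPP libraries covered 5 of the 9. Those were the first and second starts of Ccnd3, the second start of Cdkn1a, the start of Cdkn1b and the first start of Cdkn2c. The second starts lie inside the genes, 88.416 kb in for Ccnd3, 2.79 kb for Cdkn1a and 1.384 kb for Cdkn2c, so their peaks count as internal above. The windows left without a peak in either MPP library were those of Cdk6 and the first start of Cdkn1a.

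The 250 bases before 7 of these starts are shown because the starts carried an RXRA peak, in both MPP libraries for 5 of them, in MPP replicate 2 alone for Cdk4 and in MPP replicate 1 alone for the second start of Cdkn2c. They run 5′ to 3′ on the gene's strand, from RefSeq, and capitals mark the receptor hexamer AGGTCA with its variants (the letters GGGTCA, the letters AGTTCA and the letters GGTTCA) and the E-box CACGTG, on either strand.
Ccnd3 first start (chr17:47504801-47505050, + strand): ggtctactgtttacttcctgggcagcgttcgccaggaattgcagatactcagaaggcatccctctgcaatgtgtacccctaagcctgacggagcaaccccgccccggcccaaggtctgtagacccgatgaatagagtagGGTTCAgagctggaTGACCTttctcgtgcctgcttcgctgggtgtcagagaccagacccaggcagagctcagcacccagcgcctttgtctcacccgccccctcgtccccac
Ccnd3 second start (chr17:47593217-47593466, + strand): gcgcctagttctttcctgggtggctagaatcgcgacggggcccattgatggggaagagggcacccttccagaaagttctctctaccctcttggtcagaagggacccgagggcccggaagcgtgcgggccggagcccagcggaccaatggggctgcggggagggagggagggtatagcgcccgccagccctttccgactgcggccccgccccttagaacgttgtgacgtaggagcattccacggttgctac
Cdk4 (chr10:127063285-127063534, + strand): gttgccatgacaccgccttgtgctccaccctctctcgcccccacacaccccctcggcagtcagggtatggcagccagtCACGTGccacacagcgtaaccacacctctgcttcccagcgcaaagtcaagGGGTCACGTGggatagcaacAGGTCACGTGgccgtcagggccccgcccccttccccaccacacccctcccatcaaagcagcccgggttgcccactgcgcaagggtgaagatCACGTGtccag
Cdkn1a second start (chr17:29093519-29093768, + strand): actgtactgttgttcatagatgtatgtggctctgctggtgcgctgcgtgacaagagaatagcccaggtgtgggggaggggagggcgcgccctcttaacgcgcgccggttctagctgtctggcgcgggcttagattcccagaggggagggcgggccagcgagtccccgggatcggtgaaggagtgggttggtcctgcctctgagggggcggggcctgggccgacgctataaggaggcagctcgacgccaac
Cdkn1b (chr6:134920151-134920400, + strand): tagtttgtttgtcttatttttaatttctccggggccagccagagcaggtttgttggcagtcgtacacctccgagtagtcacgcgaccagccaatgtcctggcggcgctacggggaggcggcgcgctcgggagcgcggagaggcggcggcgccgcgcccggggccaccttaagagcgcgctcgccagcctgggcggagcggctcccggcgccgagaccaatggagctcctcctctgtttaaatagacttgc
Cdkn2c first start (chr4:109666757-109667006, − strand): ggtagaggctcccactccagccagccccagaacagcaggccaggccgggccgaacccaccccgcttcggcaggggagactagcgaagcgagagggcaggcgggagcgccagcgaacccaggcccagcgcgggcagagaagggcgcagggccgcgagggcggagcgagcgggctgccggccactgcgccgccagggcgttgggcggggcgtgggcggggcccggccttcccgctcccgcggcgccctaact
Cdkn2c second start (chr4:109665373-109665622, − strand): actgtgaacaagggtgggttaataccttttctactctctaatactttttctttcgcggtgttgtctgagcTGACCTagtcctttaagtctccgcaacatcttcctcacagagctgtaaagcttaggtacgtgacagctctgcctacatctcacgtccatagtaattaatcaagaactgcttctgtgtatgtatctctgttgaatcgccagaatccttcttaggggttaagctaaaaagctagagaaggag

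The sequences differ in the letters searched. Cdk4 holds CACGTG 4 times, beginning 172, 118, 98 and 11 bases before its start. The middle 2 share 2 letters each with a receptor hexamer, GGGTCA at 122 and AGGTCA at 102 bases before the start. Of 32851 windows of this length, 7 (0.0213%) held CACGTG at least 4 times, and 148 (0.451%) held AGGTCA or GGGTCA overlapping it in this way. The count of 4 and the overlap are those seen at Cdk4, so these shares only describe its window. The first start of Ccnd3 holds AGGTCA on the reverse strand 97 bases before the start and GGTTCA at 111. The peak of MPP replicate 1 there covered the last 110 of the 250 bases and the peak of replicate 2 the last 80, so the AGGTCA lay inside the first and outside the second. The second start of Cdkn2c holds AGGTCA on the reverse strand 180 bases before the start, outside the last 23 bases that its peak covered. The windows shown for Cdkn1a, Cdkn1b, the first start of Cdkn2c and the second start of Ccnd3 hold no match to the hexamers or the E-box.

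Over all 9 windows AGGTCA was matched in 3, its variants in 3, and CACGTG in 2, against 14.0%, 29.0% and 6.02% of all windows. The E2F letters TTTGGCGC, TTTCGCGC, TTTCCCGC and TTTGCCGC were in none, against 1.86%, and the GC box GGGCGG was in 6, against 32.7%. AGGTCA repeated in direct order with 0 to 5 bases between the copies was in none of the 9, and with 1 base between in 0.0335% of all windows. The median GC content of the 9 windows was 64.4%, and of all windows 52.4%. A match is a string of letters, and none of these was tested for binding.

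Ccnd3, a D-type cyclin gene on chromosome 17 from 47505051 to 47599689, had a peak over its first start in both MPP libraries. In MPP replicate 1 the peak ran from 47504941 to 47505249, with its summit 41 bases after the start, fold 5.21 and pileup 22 (13.8 to 33.3). In MPP replicate 2 it ran from 47504971 to 47505309, with its summit 81 bases after the start, fold 5.25 and pileup 15 (8.40 to 24.7). At the second start the pileup was 25 (16.2 to 36.9) and 17 (9.90 to 27.2), with both summits less than 100 bases before that start. The 2 libraries thus placed RXRA at the same 2 starts, and HSC had a peak at neither.

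Cdk4, a G1 kinase gene on chromosome 10 from 127063535 to 127067288, had a peak at its start in MPP replicate 2 alone. It ran from 127063160 to 127063569, with fold 5.52 and pileup 15 (8.40 to 24.7), and covered all of the 250 bases printed above. MPP replicate 1, the deepest library, had no gene-end peak. The start peak of Cdk4 therefore rests on 1 of 2 MPP libraries.

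Cdkn1b, a kinase inhibitor gene on chromosome 6 from 134920401 to 134925525, had a start peak in both MPP libraries. In MPP replicate 1 it ran from 134920178 to 134920544, with fold 3.51 and pileup 15 (8.40 to 24.7). In MPP replicate 2 it ran from 134920273 to 134920705, with fold 5.50 and pileup 13 (6.92 to 22.2), and its summit lay on the annotated start itself. By fold the first stood at the 14.4th percentile of its list and the second at the 46.8th, so it was a weak peak in replicate 1 and a middling one in replicate 2.

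Cdkn2c, the INK4-type inhibitor gene of the list, lies on chromosome 4 from 109660876 to 109666756 on the − strand. Its first start carried a peak from 109666697 to 109666998 in MPP replicate 1, with fold 6.22 and pileup 25 (16.2 to 36.9). In MPP replicate 2 the peak ran from 109666731 to 109667171, with fold 4.06 and pileup 9 (4.12 to 17.1). The order of the libraries was the reverse of that at Cdkn1b: the 87.6th percentile by fold in replicate 1 and the 7.20th in replicate 2. The second start had a peak in replicate 1 alone, with a pileup of 18 (10.7 to 28.4).

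Cdkn1a, a kinase inhibitor gene induced by p53, lies on chromosome 17 from 29090979 to 29100722. Both of its ends were free of peaks in every library, while its second start was not. There MPP replicate 1 had a peak from 29093513 to 29093835, with fold 4.36 and pileup 23 (14.6 to 34.5). In MPP replicate 2 it ran from 29093527 to 29093863, with fold 5.28 and pileup 16 (9.15 to 26.0). A second internal site lay further in and was the only site inside or at the end of any of the 10 genes to be listed in all 3 libraries. Its summit lay 1764 bases after the second start for HSC and 1773 and 1777 bases after it for MPP replicates 1 and 2. In the HSC list it spans 29095418 to 29095689, with fold 5.67 and pileup 11 (5.49 to 19.7). The folds in MPP replicates 1 and 2 were 5.75 and 6.47, with pileups of 32 (21.9 to 45.2) and 21 (13.0 to 32.1). Over background this site reached 18.2 times for HSC and 11.2 and 19.4 times for MPP replicates 1 and 2, with overlapping intervals (9.10 to 32.6, 7.63 to 15.7 and 12.0 to 29.7). The HSC peak there had a −log10 q of 4.37, so that at a q limit of 1e-05 no site of the inhibitors was left in all 3 libraries, nor with the MPP lists held to the HSC list's length.

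**Figure D2:**
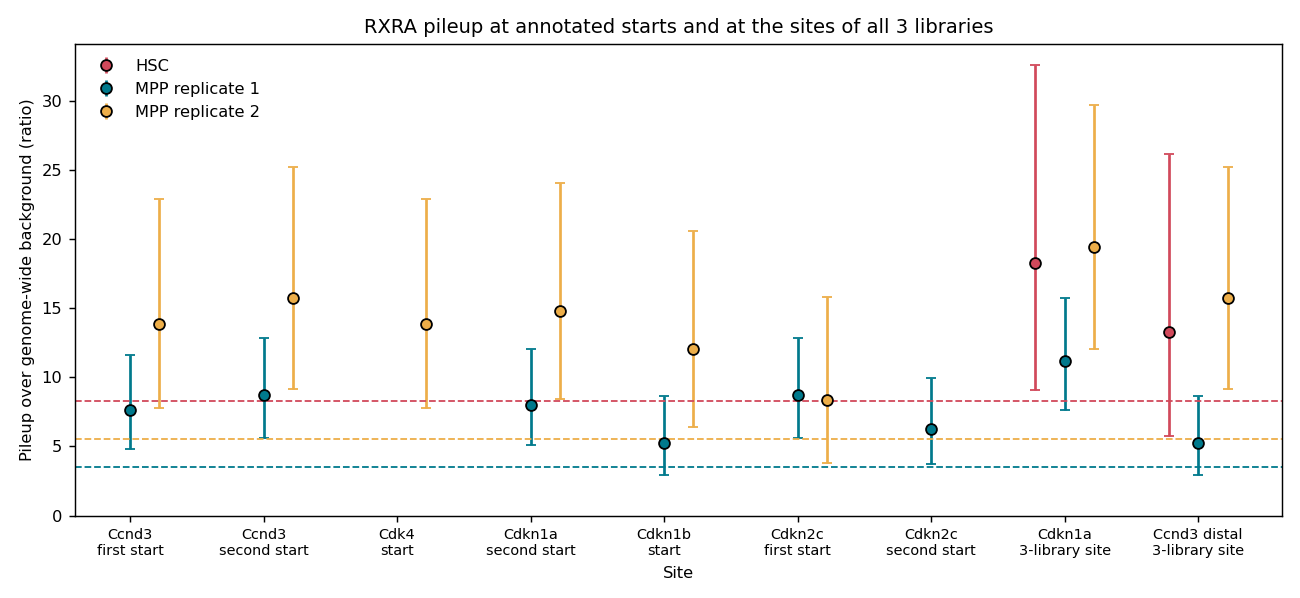
Pileup over the genome-wide background of its own library (ratio, linear axis from 0) at the annotated starts of Ccnd3, Cdk4, Cdkn1a, Cdkn1b and Cdkn2c that carried a peak and at the 2 sites listed in all 3 libraries; points are single libraries, bars exact 95% Poisson intervals, and dashed lines the lowest called pileup of each library. HSC has points at the 2 sites of all libraries alone, at 18.2 for Cdkn1a and 13.3 for the distal site of Ccnd3, and its dashed line at 8.28 lies above those of both MPP libraries.

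Inside the gene bodies peaks were denser than over all protein-coding genes. The 10 genes held 2 internal HSC peaks and 22 and 15 of MPP replicates 1 and 2 over 482 kb of gene. That is 0.415, 4.57 and 3.11 per 100 kb, where all protein-coding genes together had 0.117, 1.09 and 0.642. Most of these lay in Ccnd3 and Cdk6, the genes with the most internal peaks in both MPP libraries. Without both genes the density was 0.507, 4.06 and 2.03 per 100 kb. The HSC value of 0.415 rests on 2 peaks, and without Cdkn1a it was 0.212. Taking HSC first, the 15 marker genes had 1.17, 3.21 and 2.33 internal peaks per 100 kb. The 16 further genes of G1 control had 0, 1.23 and 1.02. A density above that of all genes is thus not particular to the 10 genes. The comparison is a description, since genes differ in length and in how much of their DNA is open.

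Ccnd3 held 9 and 6 internal peaks in MPP replicates 1 and 2, and none in HSC. As many were found in 0.347% and 0.384% of all protein-coding genes. These shares take no account of length: Ccnd3 is 94.6 kb long, and the median protein-coding gene 17.1 kb. Per 100 kb it held 9.51 and 6.34 internal peaks, and the shorter Cdkn1a held 30.8 and 20.5. Of the 10 internal sites of Ccnd3, 5 were listed in both MPP libraries. Besides the second start, these were a site about 6.19 kb after the first start with folds of 5.73 and 6.48, a neighbouring pair at about 16.6 and 18.3 kb, and a site between the 2 starts, closer to the second. That last site had a fold of 7.10 in MPP replicate 1 and 5.47 in replicate 2. In both libraries the peaks thus ran from the first start to the second, with gaps between them. Of the 4 internal peaks found in MPP replicate 1 alone, none had a fold above 3.84.

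Cdk6, the longest gene of the list, lies on chromosome 5 from 3341004 to 3531008. It held 5 internal peaks in each MPP library and 1 in HSC, on 7 sites, and no peak at an end. As many as 5 were found in 1.99% and 0.785% of all genes, again without regard to length. Per 100 kb Cdk6 held 2.63 in each MPP library. A pair of sites about 158 and 159 kb after its start was listed in both MPP libraries, with folds of 4.56 and 5.01 in replicate 1 and 4.33 and 5.22 in replicate 2. A site at about 61.3 kb was also in both, with folds of 3.30 and 6.53. The HSC peak, from 3494415 to 3494686, had fold 3.97 and pileup 7 (2.81 to 14.4). By fold it stood low in its list, at the 3.58th percentile, with a −log10 q of 1.55. It overlapped a peak of MPP replicate 2, with a fold of 4.62, and lay 6929 bases from the nearest peak of MPP replicate 1.

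The other gene bodies held fewer peaks than Ccnd3 and Cdk6 in the MPP libraries, though not always per length. Ccnd2, on chromosome 6 from 127125162 to 127152188, had 3 internal peaks in MPP replicate 1, with folds of 3.75, 3.89 and 4.92, and none in replicate 2. Those 3 peaks are 11.1 per 100 kb, above the 9.51 of Ccnd3 in the same library. Rb1, on chromosome 14 from 73192858 to 73325951, had 1 internal peak in MPP replicate 1 and 2 in replicate 2. The shared one had folds of 4.39 and 6.89 and pileups of 16 (9.15 to 26.0) and 14 (7.65 to 23.5). The other, with a fold of 6.07, lay at an end of Lpar6, a receptor gene nested inside Rb1. Ccnd1 and Cdkn1c, on chromosome 7 from 144929931 to 144939831 and from 143458339 to 143461059, had no peak inside or at an end in any library.

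Distal peaks numbered 34 and 26 for MPP replicates 1 and 2, and 2 for HSC. Both MPP libraries shared 16 distal sites, 11 around activators and 5 around inhibitors. Of the 11, 6 lay within 1 kb of an end of another protein-coding gene, and of the 5, 1 did. A distal peak may thus belong to a neighbour, and which gene it acts on was not tested. When only peaks with no other gene end closer were kept, 13 distal peaks remained in MPP replicate 1 and 7 in replicate 2.

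The strongest distal sites of the activators stood at the ends of neighbours. The site with the highest fold of all in MPP replicate 1 lay at an end of Fam133b, about 12.7 kb beyond Cdk6, with folds of 9.56 and 9.96 in MPP replicates 1 and 2. The highest in MPP replicate 2 lay at an end of Tigar, a regulator of sugar metabolism next to Ccnd2, with folds of 7.39 and 10.3. Around Cdk4, 4 sites were shared: 1 at an end of Eef1akmt3 and Mettl1, a pair at an end of Agap2, and 1 inside Os9. The Eef1akmt3 and Mettl1 site had folds of 6.71 and 7.81. Peaks of 1 MPP library alone also lay at ends of Tsfm near Cdk4, Taf8 and Usp49 near Ccnd3, Rab44 near Cdkn1a and Gpr19 near Cdkn1b.

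Some shared distal sites stood apart from any other protein-coding gene end. Around Ccnd1, 1 of 4 sites was shared, about 3.6 kb beyond the upper end of the gene. In MPP replicate 1 it ran from 144943301 to 144943733, with a pileup of 26 (17.0 to 38.1), and in replicate 2 from 144943322 to 144943756, with a pileup of 16 (9.15 to 26.0). The folds there were 5.09 and 5.18. Around Ccnd2, 2 further shared sites lay about 10.8 and 13.5 kb beyond the upper end, inside the lncRNA gene 9330179D12Rik, with folds of 5.69 and 5.17 in replicate 1 and 5.49 and 7.96 in replicate 2. About 39.7 kb before the lower end of Cdk6, a site inside the lncRNA gene Gm36470 had folds of 5.94 and 7.53.

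Among the inhibitors, Cdkn1a held most of the distal peaks, 8 and 5 in MPP replicates 1 and 2, on 9 sites of which 4 were shared. A shared site about 11.9 kb before its first start lay inside Trp53cor1, a lncRNA gene of the p53 pathway, with folds of 3.94 and 5.70. Another lay about 10.8 kb beyond the other end, with folds of 6.92 and 5.27 and pileups of 33 (22.7 to 46.3) and 14 (7.65 to 23.5). In both libraries an end of another protein-coding gene was closer to that site than an end of Cdkn1a. Cdkn2c had 1 shared distal site, at an end of Faf1, with folds of 3.36 and 7.21. Cdkn1b, Cdkn1c and Rb1 had distal peaks in both MPP libraries and none at a shared site. At Cdkn1b these included a peak of MPP replicate 2 within 1 kb of Lockd, a lncRNA gene beside it, with a fold of 4.65. At Cdkn1c, the inhibitor best known from resting stem cells, there were 2 distal peaks in MPP replicate 1 and 1 in replicate 2, and 0 peaks in HSC.

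**Figure D3:**
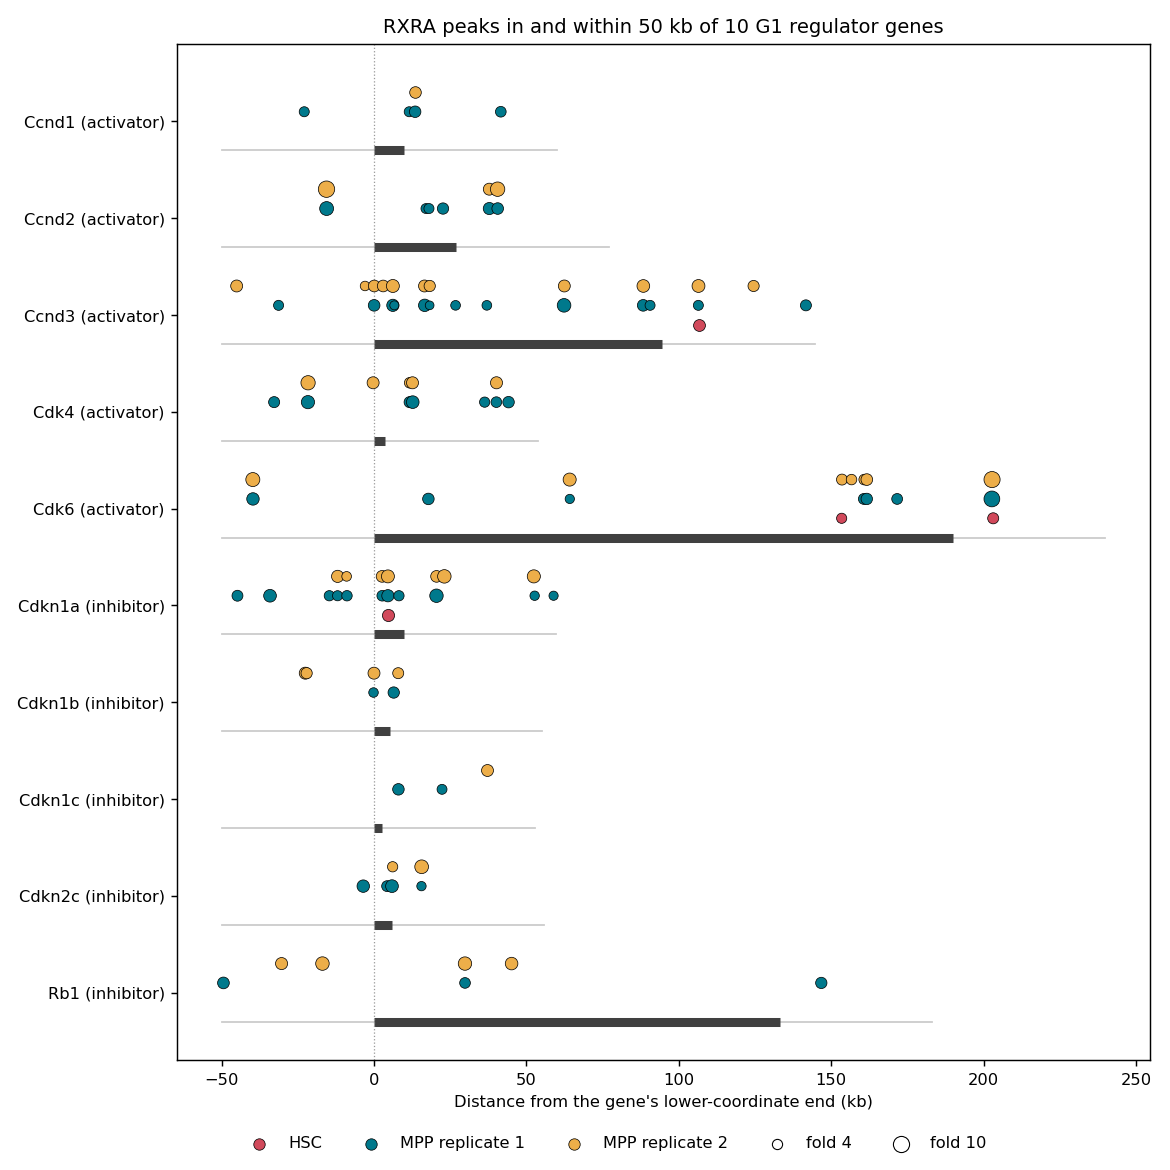
Summits of RXRA peaks (points; area grows with fold) in HSC, MPP replicate 1 and MPP replicate 2 around each of the 10 genes, by distance in kb from the end of the gene with the lower coordinate; dark bars are genes and pale lines the 50 kb on either side. Ccnd3 has peaks from its first to its second start in both MPP libraries, and HSC has 4 points in all, at Ccnd3, Cdk6 and Cdkn1a.

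The 4 HSC peaks were the internal and distal peaks at Cdk6, the distal peak at Ccnd3 and the internal peak at Cdkn1a. The distal peak at Ccnd3 lay at ends of Bysl, a factor of ribosome assembly, Med20, a Mediator subunit, and Gm20517. It was listed in all 3 libraries, with folds of 5.39, 3.85 and 6.36 for HSC and MPP replicates 1 and 2, and pileups of 8 (3.45 to 15.8), 15 (8.40 to 24.7) and 17 (9.90 to 27.2). The distal peak at Cdk6, from 3544104 to 3544375 at an end of Fam133b, had fold 4.69 and pileup 7 (2.81 to 14.4). It was the 1 HSC peak with no overlap in MPP, 41 bases from a peak of MPP replicate 2 and 148 bases from one of replicate 1. Of the 4 HSC peaks, 2 overlapped a peak of MPP replicate 1 and 3 a peak of replicate 2. Over the whole HSC list 70.8% and 76.1% did.

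The few HSC peaks come with a shallower library, fewer cells and another cell type, which cannot be told apart here. Over the whole lists 13404 peaks of MPP replicate 1 overlapped a peak of replicate 2, and HSC had 4047 peaks in all. Most shared MPP sites anywhere thus lack an HSC peak, not only those of the G1 genes. Each MPP pileup was scaled to the HSC background and set against 5 fragments, the lowest pileup called in HSC. For 28 sites shared by both MPP libraries but missing from HSC, the scaled pileup of MPP replicate 1 was 2.52 to 7.57 fragments and fell below 5 at 18 sites. That of MPP replicate 2 was 5.02 to 13.4 and fell below 5 at none. At 10 sites both stood at or above 5. Among the starts marked in both MPP libraries, that of Cdkn1b scaled to 3.15 and 7.26 fragments, the first of Ccnd3 to 4.63 and 8.37, and the second of Cdkn1a to 4.84 and 8.93. The second start of Ccnd3, at 5.26 and 9.49, and the first of Cdkn2c, at 5.26 and 5.02, stood above the lowest called pileup by both scalings. That does not mean they could be called in HSC, since 5 is the lowest pileup of the whole HSC list. The 4 HSC peaks here had pileups of 7 to 11. Local background at these starts also lay above the genome-wide value in both MPP libraries. The scaling is rough: the distal site of Ccnd3 at Bysl and Med20 scaled to 3.15 from MPP replicate 1 and was listed in HSC at pileup 8. Whether these starts differ between HSC and MPP was not tested.

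The peaks of the G1 genes stood near the middle of each MPP list by fold. Their median fold stood at percentile 55.1 of MPP replicate 1 and 46.8 of MPP replicate 2. Of the 59 peaks in MPP replicate 1, 30 overlapped a peak of replicate 2 (50.8%, exact binomial interval 37.5 to 64.1), where 44.9% of the whole list did. Of the 45 peaks in MPP replicate 2, 30 overlapped a peak of replicate 1 (66.7%, 51.0 to 80.0), against 68.1%. For activators the shares were 54.1% (36.9 to 70.5) and 74.1% (53.7 to 88.9), and for inhibitors 45.5% (24.4 to 67.8) and 55.6% (30.8 to 78.5). These intervals treat peaks as independent, but the peaks cluster in few genes. In MPP replicate 1 Ccnd3 held 13 of 37 activator peaks and Cdkn1a 11 of 22 inhibitor peaks. The shares thus describe the 2 lists and do not serve to compare them.

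**Figure D4:**
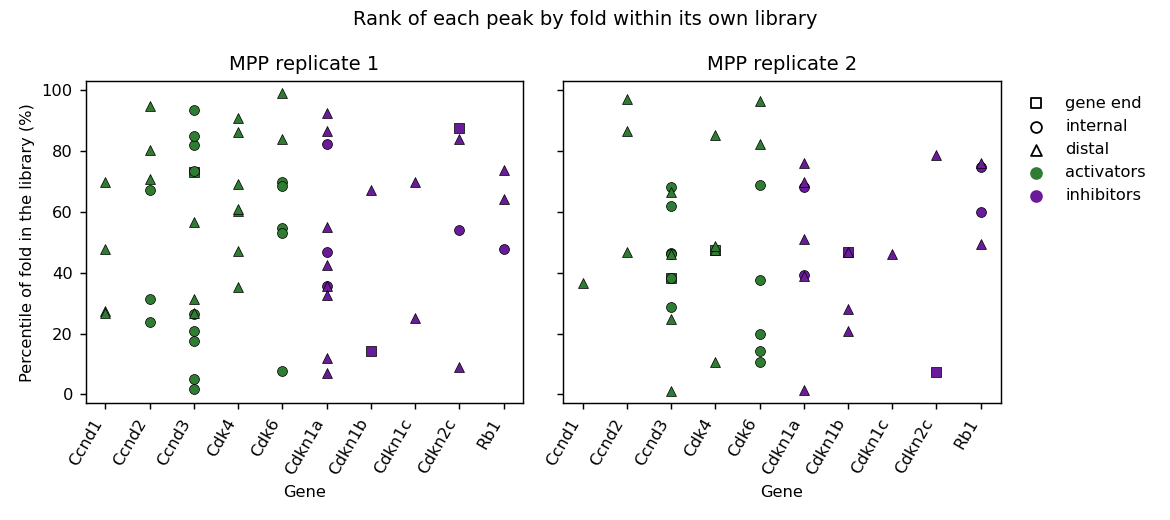
Percentile of each peak by fold within its own list (vertical axis, %, 100 the highest) for the 10 genes in MPP replicates 1 and 2; squares are gene-end, circles internal and triangles distal peaks, in green for activators and purple for inhibitors. Gene-end peaks of Cdkn1b and Cdkn2c change place between the libraries, at the 14.4th and 87.6th percentile in replicate 1 and the 46.8th and 7.20th in replicate 2.

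Gene-end peaks were listed for 3 of 16 further genes of G1 control in HSC, and for 11 and 10 in MPP replicates 1 and 2, against 0, 3 and 4 of the 10 genes and 8.21%, 41.2% and 36.0% of all genes. Cdk7, the catalytic subunit of the kinase that activates other CDKs, was the 1 marked in all 3 libraries, at folds of 4.84, 7.75 and 9.65. Cdkn2d, a second INK4-type inhibitor gene, had 2 gene-end peaks each in HSC and MPP replicate 2 and none in replicate 1. Its strongest had folds of 6.28 and 4.92 in those libraries and also lay at an end of Kri1, and the other had folds of 5.60 and 4.55. Cks1b, a cofactor in the destruction of the Cdkn1b protein, was marked in HSC and MPP replicate 2, at folds of 5.14 and 6.23, by a peak that also lay at an end of Shc1. Cdk2, Cdc25a, the phosphatase that activates it, and Trp53, which encodes p53, had end peaks in each MPP library but none in HSC, with the Trp53 peaks also at an end of Wrap53. The strongest gene-end folds were 6.98 and 6.89 at Cdk2, 6.05 and 6.96 at Cdc25a, and 5.08 and 7.20 at Trp53. Ccne1, Skp2 and Cdkn2a were marked in none.

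Of the 5050 other genes whose gene ends were marked in the 2 MPP libraries alone, those closest to Ccnd3 in log2 fold over the 2 libraries were Pear1, C3 and BC048403, at distances of 0.0075, 0.010 and 0.011. The measure is the strongest gene-end fold per library and says nothing of function.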

How the data were processed

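Tools named per the submitters' processing notes are MACS2 2.1.4, Bowtie2 2.3.4.1, cutadapt 1.9.1 and Trim Galore 0.4.2, with mm10 as build. Not given in the sources used here were their settings, the treatment of duplicates and any control library. Each library has its own deposited peak list, with 10 columns and no header, so replicates were not pooled. The authors' deposited fold is the ratio of a summit's pileup to its local background. Deposited −log10 p-values and −log10 q-values were used unchanged. The weakest q-value in the deposited lists was 0.0995 for HSC and 0.0971 and 0.0993 for MPP replicates 1 and 2. Every count of listed peaks rests on lists that reach this far. The deposited score column was not used. A deposited offset gives the summit.

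Pileups were recovered from fold and p, with 1 added to pileup and background and a Poisson tail, and came out whole, within a tolerance of 0.001, for 99.98%, 100% and 99.99% of HSC, MPP replicate 1 and MPP replicate 2 peaks. The lowest recovered background of each list was taken as genome-wide. Genes and starts came from RefSeq tables of GRCm38.p6, and positions are counted from 1. Peak placement and pileup recovery were tested on simulated data. Python 3.11.15, pandas 2.3.3 and scipy 1.17.1 were used.

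The members and lists were chosen with earlier results of these data known. All members were named; of the 16 other G1 genes, up to 6 were named by number of libraries, then HSC fold, then the lower MPP fold, and the 3 genes without a peak were added. The member for the likeness measure was chosen by the same order, the last step being added since the HSC fold left a tie. Protein-coding neighbours that share a peak were named; Os9 and lncRNA genes were named after their values were seen. Labels do not say whether the MPP libraries came from separate pools of mice. Alternatives were other windows, reaches, overlaps, a stricter q, equal list lengths and leaving out each MPP library.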

Additional observations from a re-analysis of the deposited data

How the results depend on the processing

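Of 163 alternative values of 36 results, 104 stayed within 1.5 times the reported value, or equal to it where it was 0, and 59 did not. All are counts or densities with no test, and the cause was not tested unless the setting's own construction gives it. Shares of all protein-coding genes were taken at the reported settings alone. A member count that moved at another setting is therefore not set against the background at that setting. No paired analysis was possible because the HSC label carries no replicate number and no result comes from a test.

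With a gene-end window of 5 kb, 3 activators were marked in MPP replicate 1 and 1 inhibitor in HSC. Among peaks of q at or below 1e-05, HSC kept 0 peaks, and thus 0 genes with internal or distal peaks, for both lists; peaks in MPP replicate 1 came to 24 for activators and 13 for inhibitors, 1 inhibitor had a gene-end peak in MPP replicate 1 (Cdkn2c) and 1 in replicate 2 (Cdkn1b, a different gene), inhibitors had 3 sites in both MPP libraries, and 0 sites lay in all 3 libraries or in HSC alone.

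With each MPP list held to the length of the HSC list, activators kept 4 and 5 peaks in MPP replicates 1 and 2 (gene-end 0 and 0 genes, internal 1 and 0, distal 3 and 3). Inhibitors kept 3 and 0 (gene-end 1 and 0, internal 0 and 0, distal 1 and 0). Sites in both MPP libraries were 3 and 0 for activators and inhibitors, sites in all 3 libraries 0 and 0, and sites in HSC alone 3 and 1.

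With a reach of 100 kb, MPP replicate 1 had 56 peaks at activators and 42 at inhibitors, MPP replicate 2 had 34 at inhibitors, and HSC had 3 at inhibitors, with distal peaks at 2 of them. With distal peaks kept only where no other gene end was closer, activators had 1, 24 and 17 peaks in HSC and MPP replicates 1 and 2, with distal peaks at 0, 3 and 3 genes, and inhibitors had 14 and 9 in the MPP libraries, with distal peaks at 2 genes in replicate 2.

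With gaps of up to 1 kb allowed, activators had 2 sites in all 3 libraries and 0 in HSC alone. With 1 MPP library left out, the sites counted as MPP were 27 and 37 for activators and 18 and 22 for inhibitors without replicates 1 and 2, activators had up to 2 sites in all libraries, and up to 2 in HSC alone. Leaving out Ccnd3 and Cdk6, an alternative chosen after seeing the data, gave 2.03 internal peaks per 100 kb in MPP replicate 2. The depth of the HSC library cannot be told apart from its cell number and cell type.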
